A study of Mus musculus with 4 samples.

Results

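NR6A1 peaks in the Hox clusters of mouse mesenchymal stem cells were gathered in HoxA and HoxC. HoxD held 2 peaks in replicate 1 and 1 in replicate 2 and HoxB held none, counts that are common in stretches of their length elsewhere in the genome. The peaks described are those of 2 deposited lists, 1 for each NR6A1 replicate, whose midpoint lay in 1 of 4 windows on the mouse genome build mm9: HoxA at chr6:52100000-52215000, HoxB at chr11:96050000-96235000, HoxC at chr15:102745000-102870000 and HoxD at chr2:74490000-74605000. The windows span 540 kb in all and held 29 of 21507 peaks in replicate 1 and 26 of 16160 in replicate 2, which is 0.135% and 0.161% of each list. Members were chosen by the position of the called peaks. The windows were drawn with earlier results of these lists known, so the number of peaks in them is a description and carries no test. They stand for 38 Hox genes, 10 in HoxA, 10 in HoxB, 9 in HoxC and 9 in HoxD.

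The study located NR6A1 on chromatin by immunoprecipitation and sequencing (ChIP-seq) in monoclonal, immortalized C57BL/6 mesenchymal stem cells. All 4 libraries came from Dicer f/f cells, called Dicer WT, that were infected with a retrovirus, selected with puromycin, fixed with formaldehyde for 10 min and precipitated with an antibody to HA. In 2 libraries the virus carried Flag-HA-NR6A1, so the protein was tagged and came from a retroviral vector rather than from its own gene, and in 2 it was the vector without NR6A1. Values of the vector libraries are not used here, and no background of the antibody stands beside the peaks. Nothing in the labels says that the replicates came from separate cultures, so the spread between them may be technical, and the labelled cell type cannot be checked against marker genes in peak lists.

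Hox genes encode homeodomain transcription factors that give cells their position along the head to tail axis. In mammals they lie in 4 clusters, and their order along the chromosome follows the order of the body regions in which they act: genes at the 3′ end of a cluster are switched on early and far forward (anterior), and those at the 5′ end late and toward the tail, the limb ends and the genital region (posterior). Fibroblasts and mesenchymal stem cells of the adult keep much of the Hox pattern of the body site they came from. NR6A1, also called germ cell nuclear factor, is an orphan nuclear receptor known mainly as a repressor. It is active in the embryo, where it silences pluripotency genes and takes part in the growth of the trunk, and its messenger RNA is a target of the microRNA let-7, as the series title states. It binds DNA as a dimer on repeats of the hexamer AGGTCA without a spacer, or on the extended element TCAAGGTCA.

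These elements were looked for in the promoters of the Hox genes, since they are the letters that NR6A1 is known to read. The promoters are those of RefSeq on GRCm38.p6, from 250 bases before to 50 bases after each transcription start. That table held 24 promoters of 22 of the 38 genes: 9 genes in HoxA, 3 in HoxB, 1 in HoxC and 9 in HoxD. The extended element TCAAGGTCA, searched on both strands, was in 0 of the 24, and among all 32851 promoters in the table it was in 139, or 0.423%. The direct repeat of the hexamer was in 0 of the 24 and in 2 of all promoters, or 0.00609%. The bare hexamer AGGTCA, which is also the end of the extended element, was in 7 of the 24, or 29.2%, against 16.3% of all promoters. The lines give those 7 hexamers in capitals, each with its neighbours, 30 bases in all, read 5′ to 3′ on the strand that carries AGGTCA.
Hoxa5: agtgcacgagtttacctctagAGGTCAtca
Hoxb4: tgggtacccactAGGTCAtaggggcgctga
Hoxc4: tgcagtctgtgtAGGTCAcagggcagcgcc
Hoxd3: acgaccgcaaatAGGTCAtaaaaaggtcta
Hoxd4: agaatgcgagagAGGTCAtattcatatcaa
Hoxd8: ttcgctttgataAGGTCAggattcggaggc
Hoxd10: cagcctccttgcAGGTCAcgtgttccccag
In the extended element the 3 bases before the hexamer are TCA. Of the 7 hexamers 5 had 1 of these 3 bases in place and 2 had none. Hoxd8 alone had the A next to the hexamer, a 7-base match that 4.72% of all promoters hold. Hoxd8, Hoxd10, Hoxd3, Hoxd4, Hoxb4 and Hoxc4 carried the hexamer before the start, at 135, 69, 161, 145, 81 and 146 bases from it, and Hoxa5 carried it 42 bases into the transcript. A match of letters is not a binding site, and these windows are on another build than the peaks, so no peak was placed on a promoter.

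For the same reason the peaks were not assigned to single Hox genes. The order of the genes along each chromosome was used instead, with no coordinates moved between builds. In HoxA the anterior genes, from Hoxa2 on, lie at the low coordinates and Hoxa13 lies at the high end. In HoxB, HoxC and HoxD the order is the other way round, with Hoxb13, Hoxc13 and Hoxd13 at the low end and Hoxb1, Hoxc4 and Hoxd1 at the high end. Each window was cut at its middle into an anterior and a posterior side, and distances below are counted from the anterior end of the window. The sides are lengths of chromosome and not sets of genes. Of the 38 genes, 11 belong to the anterior paralog groups 1 to 4, 11 to the central groups 5 to 8 and 16 to the posterior groups 9 to 13.

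HoxA was the densest of the clusters. The window had 18 replicate 1 and 17 replicate 2 peaks, which is 15.7 and 14.8 peaks per 100 kb (15.2 ± 0.615, mean ± SD, n = 2). HoxC followed with 9 and 8 peaks, or 7.20 and 6.40 per 100 kb (6.80 ± 0.566, n = 2). HoxD held 2 peaks and 1 peak (1.30 ± 0.615 per 100 kb, n = 2), and HoxB, with the longest window of 185 kb and 10 genes, held 0 in both. The order HoxA, HoxC, HoxD, HoxB was the same in both replicates, and the gaps between HoxA, HoxC and HoxD were wider than the spread between the replicates. Each whole list had 0.815 and 0.612 peaks per 100 kb. HoxA was thus 19.2-fold and 24.1-fold denser than its list, HoxC 8.84-fold and 10.5-fold, and HoxD 2.14-fold and 1.42-fold.

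**Figure D1:**
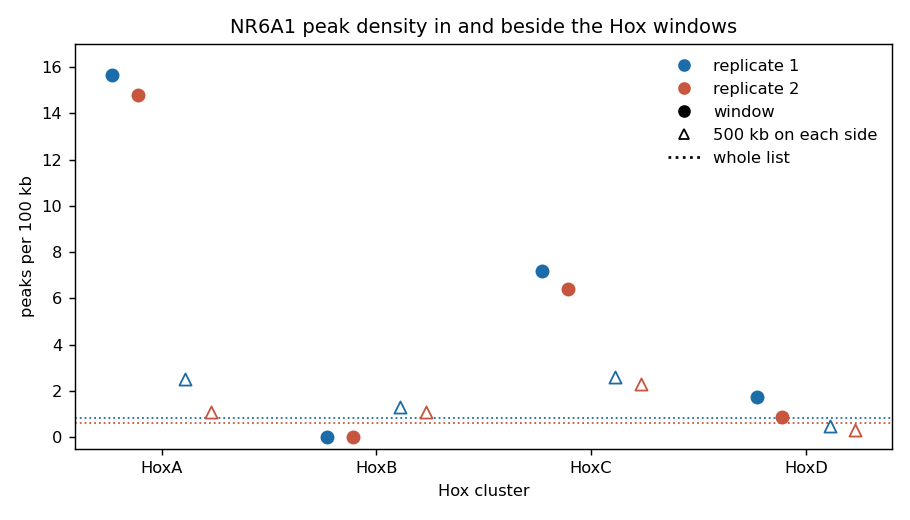
Peaks per 100 kb (vertical axis) in each Hox window (filled circles) and in the 500 kb on each side of it (open triangles), for replicate 1 (blue) and replicate 2 (red), with the density of each whole list as a dotted line. HoxA, HoxC and HoxD stand above their own flanks in both replicates, HoxD with only 2 and 1 peaks. HoxD is within 2.14-fold of the lists, and HoxB is at 0.

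The rest of the genome gives these counts a scale. All chromosomes were divided into tiles as long as each window, without the tiles that touch it. Of 22935 tiles of the HoxA length, 0% had as many peaks as HoxA in either replicate. With stretches that may start at any peak, another stretch of 115 kb reached 18 peaks in replicate 1, as many as HoxA, and the fullest in replicate 2 had 16 against 17 in HoxA. For HoxC, 0.692% of tiles in replicate 1 and 0.588% in replicate 2 had as many peaks. HoxD was ordinary by this measure, with 22.9% and 32.6% of tiles at its count or above. Nor does the empty HoxB window stand apart from such tiles, since 54.1% and 58.1% of tiles of its length were empty too. The tiles were not matched to the windows for gene content.

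Beyond the HoxA, HoxC and HoxD windows the density was lower than in them. The 500 kb on each side of HoxA held 25 replicate 1 and 11 replicate 2 peaks, with densities of 2.50 and 1.10 per 100 kb. Around HoxC there were 26 and 23 peaks, or 2.60 and 2.30 per 100 kb. Around HoxD there were 5 and 3 peaks, or 0.5 and 0.3 per 100 kb. The HoxD window had 1.74 and 0.870 per 100 kb, from only 2 peaks and 1 peak. The limits of the windows did not cut through a run of strong peaks. At the posterior end of HoxA the outermost members lay 4.94 and 4.88 kb inside the limit with scores of 422.54 and 308.85, and the nearest peaks outside lay 8.11 and 10.4 kb beyond it with scores of 226.19 and 221.31. At the anterior end the outermost members lay 10.7 and 10.9 kb inside, and the nearest peaks outside were 58.1 and 143.7 kb away. Outside the HoxD window, no peak of either list lay within 500 kb of its posterior end.

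The stretch without peaks over HoxB went past both ends of its window. That stretch ran from 95926923 to 96268805 on chromosome 11 in replicate 1, or 341.9 kb, and from 95937141 to 96683803 in replicate 2, or 746.7 kb. The median stretch between neighbouring peaks was 28.2 kb in replicate 1 and 37.7 kb in replicate 2. An empty window of this length has to lie in a stretch longer than that median, so the comparison says no more than the share of empty tiles does. The flanks of HoxB did have peaks: 13 in replicate 1 and 11 in replicate 2 within 500 kb on each side. The nearest to the Hoxb13 end lay 123.1 and 112.9 kb outside the window, and the nearest to the Hoxb1 end 33.8 and 448.8 kb. The lists give only peaks past the caller's minimum, so weaker binding in HoxB cannot be told from none.

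Within HoxA the peaks lay toward the posterior genes. Replicate 1 had 5 peaks on the anterior side and 13 on the posterior side, and replicate 2 had 2 and 15. The anterior share was 27.8% and 11.8% (19.8 ± 11.3%, mean ± SD, n = 2). The size of this share depends on the cut, and its mean over both replicates ran from 10.1% to 28.3%. The former left out the middle part of 3 equal parts, and the latter moved the cut by 5 kb toward the posterior end. By replicate the share ran from 5.88% in replicate 2, with the cut 5 kb toward the anterior end, to 38.9% in replicate 1. The latter had the cut 5 kb toward the posterior end. The share stayed under 50% in each. The posterior side had 22.6 and 26.1 peaks per 100 kb, and peaks covered 19.9% and 27.4% of its bases, against 0.483% and 0.413% of the genome in each list. The division was sharper for strong peaks: all 6 peaks of replicate 1 and all 5 of replicate 2 with a score of 1000 or more in HoxA were on the posterior side. The longest stretch of the HoxA window without a peak, 29.2 kb in replicate 1 and 42.8 kb in replicate 2, was on the anterior side.

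**Figure D2:**
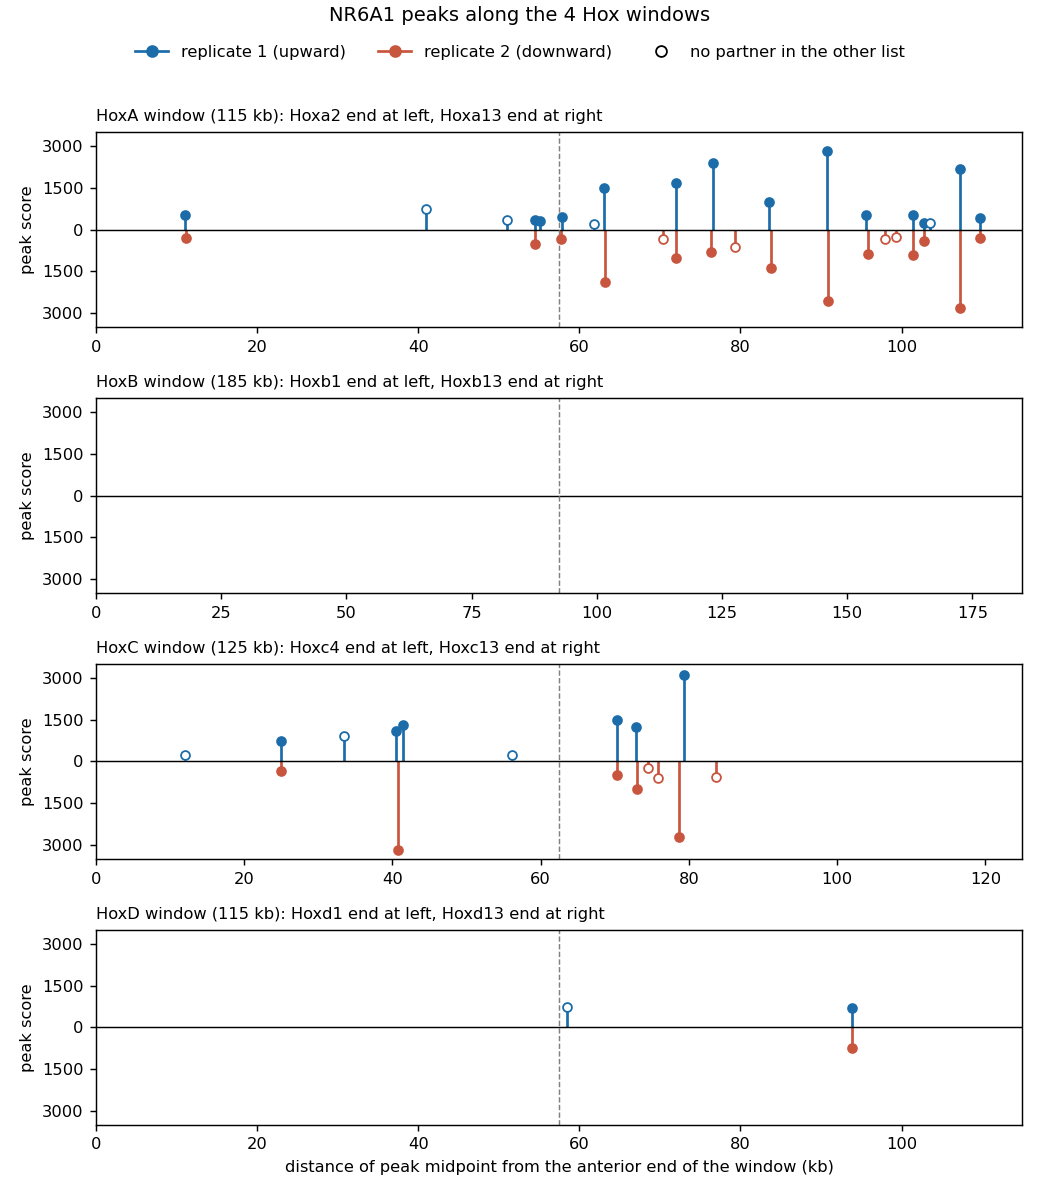
Peaks along the 4 windows by distance of the midpoint from the anterior end (horizontal axis, kb) and by the authors' peak score (vertical axis), with replicate 1 drawn upward and replicate 2 downward; open circles have no overlapping peak in the other list and the dashed line is the middle of the window. In HoxA the strong peaks of both replicates lie right of the middle, in HoxC they lie on both sides of it, HoxD has 2 and 1 peaks and HoxB none.

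In HoxC the replicates divided their peaks differently. Replicate 1 had 6 on the anterior side and 3 on the posterior side, and replicate 2 had 2 and 6, so the anterior share was 66.7% and 25.0%. With a mean of 45.8 ± 29.5% (SD, n = 2) no side of HoxC was favoured beyond the spread between replicates. The regions found in both lists were split 2 to 3. The 3 posterior regions lay together between 70.3 and 78.7 kb from the anterior end, and nothing in either list lay beyond 83.7 kb, in the part of the window that ends with Hoxc13. In HoxD all 3 peaks fell on the posterior side, but the peak of replicate 1 at chr2:74546178-74546812 was only 1.01 kb past the middle.

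**Figure D3:**
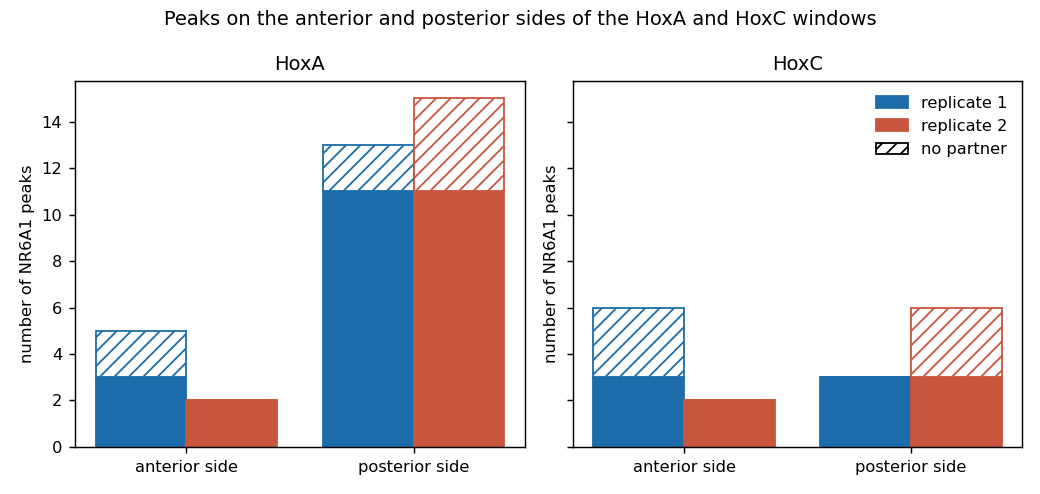
Number of peaks (vertical axis) on the anterior and posterior side of the HoxA and HoxC windows in replicate 1 (blue) and replicate 2 (red), with peaks that have no partner in the other list hatched. In HoxA both replicates have more peaks on the posterior side (13 and 15, against 5 and 2), while in HoxC the replicates differ.

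Most Hox peaks had an overlapping peak in the other replicate. Peaks that overlap by at least 1 bp are called partners here. Of the replicate 1 members 21 of 29 had a partner, or 72.4% (95% Wilson interval 54.3 to 85.3%), where the whole list had 42.7%. Of the replicate 2 members 19 of 26 had a partner, or 73.1% (53.9 to 86.3%), where the whole list had 56%. These intervals cover counting error only. Merged, the peaks made 34 regions, of which 19 were in both lists, 8 in replicate 1 only and 7 in replicate 2 only. Those 19 are 55.9% of the Hox regions, against 31.7% of all regions. The excess depends on how a partner is defined: with midpoints within 100 bp, 41.4% of replicate 1 members and 46.2% of replicate 2 members had a partner, against 34.9% and 46.4% of the lists. The midpoints of the 19 regions lay a median of 63.0 bp apart, against 36.0 bp over all regions in both lists. The Hox peaks were also wider, with a median of 676 bp in replicate 1 and 833 bp in replicate 2, against 538 and 613 bp.

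By cluster, HoxA had 13 regions in both lists, HoxC 5 and HoxD 1. HoxA added 4 regions in replicate 1 only and 4 in replicate 2 only, HoxC 3 and 3, and HoxD 1 in replicate 1 only. The regions of a single replicate were weaker. The median score was 303.8 in replicate 1 and 325.7 in replicate 2 for members without a partner, and 1006.5 and 869.8 for those with one. The whole lists differed in the same direction, with medians of 363.1 and 314.2 without a partner and 520.8 and 510.0 with one. The score is the authors' value for each peak and runs from about 200 upward in both lists. It depends on the depth and background of its own library, which the lists do not give, so it ranks peaks within a list. Where the scores of both replicates are set side by side or given as a ratio, unequal depth or background of the 2 libraries is part of what is seen.

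The strongest region of HoxA in both lists together was chr6:52189875-52191603, 90.7 kb from the anterior end, with scores of 2834.45 in replicate 1 and 2562.68 in replicate 2. The region chr6:52206845-52207682, at 107.3 kb and so close to the Hoxa13 end, scored 2186.07 and 2813.72. The lowest of these 4 scores ranked above 96.8% of its list, and the replicates differed by less than 1.5-fold in both regions. At chr6:52162446-52163808, 63.1 kb from the anterior end, the scores were 1485.62 and 1892.14.

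Between these lay 3 more strong regions. The region chr6:52175870-52177363 had the greatest difference in HoxA, with 2396.78 in replicate 1 and 801.95 in replicate 2, a ratio of 2.99. Its neighbours chr6:52171495-52172470 and chr6:52182967-52184543 scored 1683.86 and 1006.52 in replicate 1 and 1019.98 and 1360.42 in replicate 2. These 6 regions were spread over 44.1 kb of the posterior side, and in 5 of them both scores were at 1000 or more.

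The remaining regions of HoxA in both lists were of moderate or low score. Toward the posterior end, chr6:52194820-52196840 scored 540.16 and 869.80 and chr6:52200972-52201788 scored 528.93 and 922.70. At 109.7 kb, chr6:52209333-52210125 scored 422.54 and 308.85, the last peak before the end of the window. Near the middle, chr6:52157497-52158047 scored 466.20 and 334.09 and lay 0.272 kb past it. On the anterior side there were 2 regions in both lists, chr6:52154124-52155366 with 344.04 and 508.04 and chr6:52110708-52111452 with 546.09 and 292.70. The latter lay 11.1 kb from the anterior end, and these were the only 2 peaks of replicate 2 on that side. A last region in both lists, with the lowest ranks of the 13, is not named.

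HoxC held the highest scores of the Hox peaks. The region chr15:102789913-102792727, 78.7 kb from the anterior end, scored 3100 in replicate 1, a value that 239 peaks of that list share, and 2712.44 in replicate 2. On the anterior side, chr15:102828148-102830214 was 1 broad peak of 2067 bp with a score of 3194.40 in replicate 2 and 2 peaks with scores of 1304.95 and 1103.47 in replicate 1. That peak of replicate 2 ranked above 99.9% of its list.

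HoxC had 3 other regions in both lists. The region chr15:102796680-102797514 scored 1234.94 and 992.74, within 2-fold. At chr15:102799226-102800100 the scores were 1486.90 and 493.28, a ratio of 3.01, the greatest in any Hox region. At chr15:102844766-102845360, in the anterior part, they were 734.70 and 351.16. Scores lay within 2-fold of each other in 2 of 5 HoxC regions and in 12 of 13 HoxA regions, where 66.3% of all regions in both lists did. HoxD had its single such region at chr2:74510843-74511480, 93.8 kb from the anterior end and toward Hoxd13, with 709.66 and 752.47.

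**Figure D4:**
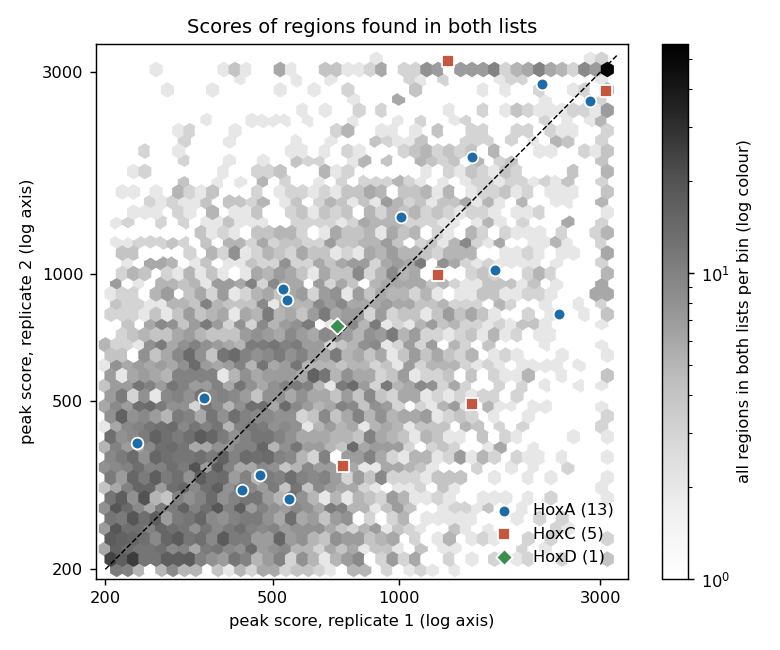
Peak score in replicate 1 (horizontal, log axis) against replicate 2 (vertical, log axis) for the 13 HoxA, 5 HoxC and 1 HoxD regions in both lists, over all 9009 regions in both lists (grey, darker for more regions), with equality as a dashed line. Of the 19 Hox regions 15 lie within 2-fold of equality, and 7 have a score of 1000 or more in both replicates.

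High scores were common among the Hox regions. In 7 of the 19 regions in both lists, or 36.8%, both scores were at 1000 or more, where 11% of all regions in both lists reached that. By replicate, 11 of 29 members or 37.9% had such a score in replicate 1, against 15.9% of the list, and 7 of 26 or 26.9% in replicate 2, against 14%. The median member ranked above 73.7% of the replicate 1 list and above 70.1% of the replicate 2 list. Across the 13 HoxA regions the scores of the replicates had a Spearman rho of 0.68, against 0.40 across all regions in both lists. These regions come from the same library pair and 1 locus, so the value is a description. Neither replicate was stronger throughout, with replicate 1 higher in 10 of the 19 regions and replicate 2 in 9.

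The peaks found in 1 replicate lay in different places. In replicate 1, 5 of the 8 without a partner were on the anterior side of HoxA or HoxC, where 11 of all 29 members lay. The highest in HoxA was chr6:52140614-52141230 with a score of 749.50, and the highest in HoxC was chr15:102836230-102836893 with 917.65. In HoxD it was the peak near the middle of the window, with 714.46, and no peak of replicate 2 lay within 34 kb of it. In replicate 2 all 7 were on the posterior side, where 22 of all 26 members of that replicate lay. Each of the 7 lay within 2.7 kb of a replicate 1 peak. Of the 8 in replicate 1, 3 lay within 5 kb of a replicate 2 peak. Neighbouring replicate 1 peaks in HoxA lay a median of 3.94 kb apart, so a short distance is common there. The highest of them were chr6:52178636-52180061 with 603.97 and chr15:102793720-102794662 with 593.03, each lying between regions found in both lists. On the posterior side of the 4 windows together, replicate 2 had 22 peaks and replicate 1 had 18, although its whole list is shorter.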

How the data were processed

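ChIP-seq peaks were used for the 2 NR6A1 libraries, and the 2 vector libraries were not analysed here. Each list holds chromosome, start, end, a MACS peak name and a score, and there is 1 list per library, so peaks were called per sample. The deposited score is the authors' value for each peak. Its definition, the control library and the threshold are not given in the sources used here. The submitters' processing notes name Bowtie 0.12.7, MACS and the build mm9, with no roles. Read depth is unknown from these lists. Positions are on mm9, with the first base as 1.

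Members were peaks with their midpoint in the windows. Partners overlapped by at least 1 bp, and linked peaks were merged into regions, with the highest score per replicate. Density used the placed chromosomes other than Y, with lengths from GenomeInfoDb 1.38.1 in R 4.3.3. A score of 1000 marks strong peaks. Intervals are 95% Wilson (scipy 1.17.1, Python 3.11.15, numpy 2.4.6, pandas 2.3.3), and no test was run. The overlap code was tested on simulated lists. Gene order and promoters came from RefSeq on GRCm38.p6. Named regions are those in both lists, up to 12 per window by mean rank, and the highest peak without a partner per window and replicate. Promoters with the hexamer are shown because none held the element on which the rule for printing promoters rested, so that choice was made after the search. The members, windows and lists were chosen with earlier results of these data known.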

Additional observations from a re-analysis of the deposited data

How the results depend on the processing

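The alternatives other than leaving out a replicate gave 49 values. Of these, 35 kept to a limit (the SD between replicates, the Wilson interval, or 1.5-fold for counts) and 14 moved past it. Whether a value changed direction was not scored. Taking the upper 50% of each list by score gave 3.61 peaks per 100 kb over all windows (5.09 as reported), 10.0 in HoxA and 5.20 in HoxC, and left 8 HoxA regions in both lists. Windows widened by 10 kb at each end gave 4.60, 13.3 and 6.21 peaks per 100 kb. Both settings kept the order of the clusters. With midpoints within 100 bp, 41.4% and 46.2% of members had a partner, and 8 HoxA and 3 HoxC regions were in both lists. With each window cut in 3 equal parts and the middle part left out, the anterior share was 83.3% in HoxC (45.8% as reported). Most of its posterior peaks then fall in the middle part. In replicate 2 of HoxC this share went from 25.0% to 66.7%, to the other side of 50%. Moving the middle by 5 kb toward the posterior end, added after seeing the data, gave 25.0% in HoxD. The anterior share of HoxA, 19.8% as reported, was 10.1% without the middle part, 12.9% in the upper 50%, 11.3% with the cut 5 kb toward the anterior end and 28.3% with it 5 kb toward the posterior end. The hexamer in place of the extended element gave 7 promoters. Leaving out each replicate of 2 moves a mean by less than their SD by construction, so those 16 values carry no verdict. They were 14.8 to 15.7 peaks per 100 kb in HoxA, 6.40 to 7.20 in HoxC, 0.870 to 1.74 in HoxD, 0 in HoxB and 4.81 to 5.37 in all, and an anterior share of 11.8 to 27.8% in HoxA, 25.0 to 66.7% in HoxC and 0% in HoxD. No paired analysis was possible because vector values were not analysed here. The alternative by nearest gene was not run, since no annotation on mm9 was used.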
